A study of Mus musculus with 23 samples.

Results

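The 10 genes described here encode proteins that bring glucose into the brown adipocyte and take it through glycolysis. They were chosen by symbol (Slc2a1, Slc2a4, Hk1, Hk2, Pfkl, Pfkp, Pfkfb3, Aldoa, Gapdh and Pkm), and all 10 were among the 14651 genes measured in brown adipose tissue (BAT) of 23 mice. BAT-Mcu-KO mice were Mcu fl/fl;Ucp1-Cre animals, which lose Mcu, the pore of the mitochondrial calcium uniporter, in cells that express the uncoupling protein UCP1. Control (Ctrl) mice were Mcu fl/fl without Cre, so the floxed allele was shared by all groups. There were 6 Ctrl and 6 BAT-Mcu-KO mice at room temperature (RT), and 5 Ctrl and 6 BAT-Mcu-KO mice at 4°C, in each case for 6 h. All of them were C57BL/6 males of 8 to 12 weeks. Mice at 4°C were kept singly and, per the study's methods, in cages without bedding. Per the labels, mice at 4°C had no food unless otherwise stated. Whether mice at RT had food, bedding or company in these 6 h is not given. Cold therefore cannot be told apart here from lack of food, single housing or lack of bedding.

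Glucose enters brown adipocytes through facilitative transporters, of which GLUT1 (Slc2a1) sits at the cell surface and GLUT4 (Slc2a4) is held in vesicles that insulin brings to the surface. Hexokinases trap glucose as glucose 6-phosphate, and phosphofructokinase, which fructose 2,6-bisphosphate activates, commits it to glycolysis. The remaining steps split the sugar and turn it into pyruvate. Cold raises glucose uptake by BAT through the noradrenaline that sympathetic nerves release.

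The plot of normalized counts shows every mouse for each gene. Slc2a1, Hk1, Hk2 and Pfkp rose at 4°C in both genotypes, by between 1.85-fold and 3.10-fold. Slc2a4, Pfkl, Pfkfb3, Gapdh and Pkm did not pass the test in either, and Aldoa passed it in Ctrl mice and not in BAT-Mcu-KO mice.

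**Figure D1:**
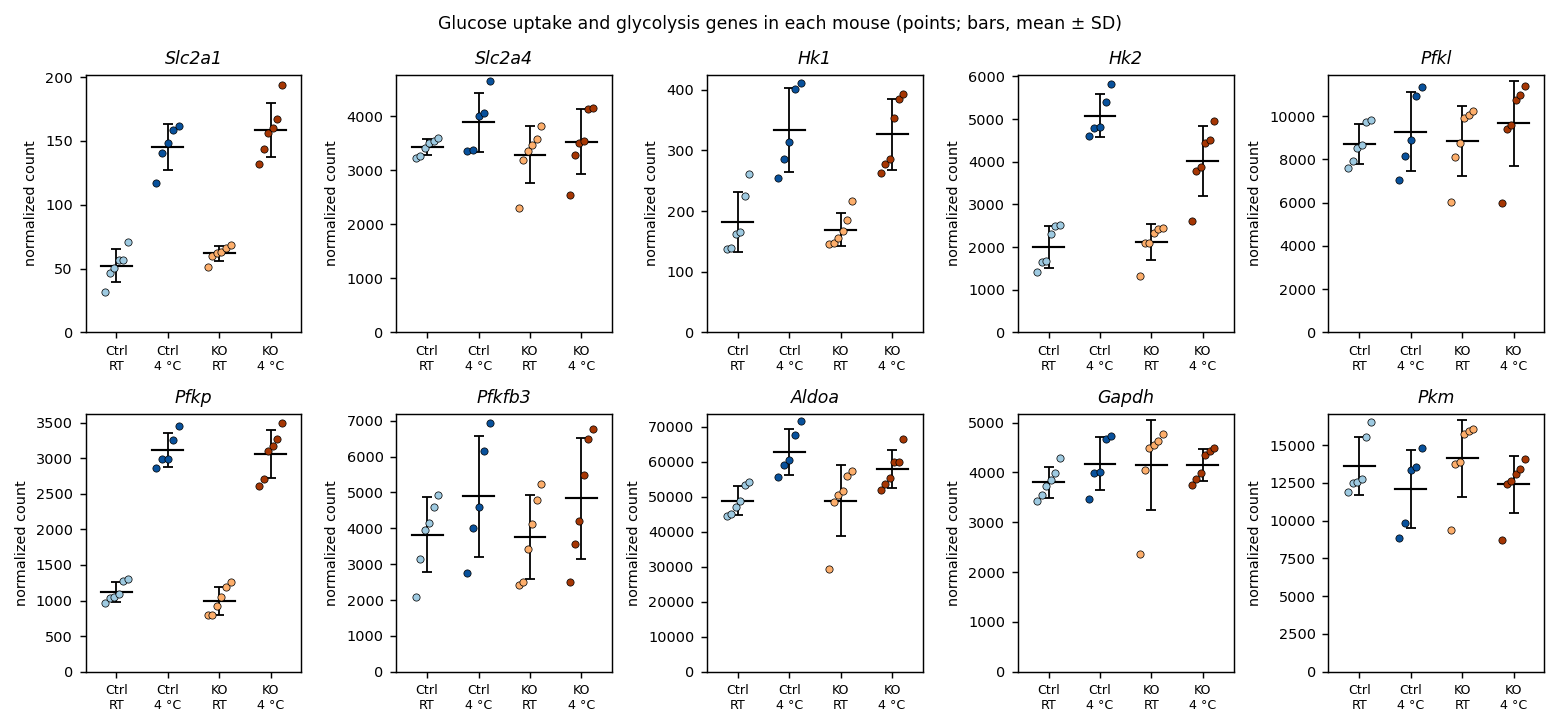
Normalized count (y axis, reads divided by the size factor of the library, each axis from 0) of the 10 genes in each of the 23 mice, by group (x axis; KO, BAT-Mcu-KO). Points are mice and bars the mean ± SD; the 4°C mice of Slc2a1, Hk2 and Pfkp lie above all RT mice of their genotype, whereas the RT and 4°C mice of Slc2a4, Pfkl, Gapdh and Pkm overlap in both genotypes.

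Reads counted on genes ranged from 7129271 to 21006347 per mouse, and mice of 1 group differed by more than sampling noise (chi-square per degree of freedom between 8.59 and 61.8 over 55 pairs). Mcu was lower in BAT-Mcu-KO than in Ctrl mice by 1.66 on the log2 scale at RT (log2 difference -1.66 ± 0.22, SE, adjusted p = 0.0010) and by 1.61 at 4°C (-1.61 ± 0.23, adjusted p = 0.00367, limma), with no overlap between genotypes. All 10 brown adipocyte markers examined were present, and their summed normalized count was 182612 to 258109 at RT and 268548 to 326718 at 4°C, while of the 10 genes 3 were called higher and 4 lower at 4°C in Ctrl mice, and 2 higher and 2 lower in the BAT-Mcu-KO group. Of 6 macrophage markers 1 was called higher at 4°C in Ctrl and 4 in BAT-Mcu-KO mice, with a summed count of 501 to 961 at RT and 681 to 1271 at 4°C. Of 3 white adipocyte markers 2 were called lower at 4°C in each genotype, with a summed count of 608 to 1848 at RT and 314 to 716 at 4°C. The part of these cell types in the members' results was not tested. The summed count of 14 skeletal muscle genes, none of which is a member, ranged from 46.0 to 84426 per mouse. It exceeded 3 times its median in 7 mice: 3 of the 5 Ctrl at 4°C, 3 of the 6 BAT-Mcu-KO at RT and 1 of the 6 BAT-Mcu-KO at 4°C. Without these 7 mice, 4 members were called changed by cold in Ctrl and 5 in BAT-Mcu-KO mice. With the muscle score as a covariate 5 were called in each, against 5 and 4 with all mice. The fit without the 7 mice held 16 mice. It called 4664 genes by cold in Ctrl and 4495 in BAT-Mcu-KO mice, against 6735 and 6349 with all mice. Whether calls lost in it reflect muscle or the lower number of mice was not tested. In bulk tissue, fewer cells of a type and less RNA per cell cannot be told apart.

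The sequences just upstream of the RefSeq start sites of the 4 genes that rose in both genotypes are shown because their promoters differ in the short motifs through which hypoxia and cAMP signals are known to act. RefSeq promoters (GRCm38.p6) were matched for 9 of the 10 genes, 14 promoters in all, with no entry matched for Slc2a4. Each line gives the 250 bases before the start, 5′ to 3′ on the strand of the gene, and capitals mark ACGTG, the core of the hypoxia response element, and TGACG, the core of the cAMP response element, on either strand (CACGT and CGTCA when read on the other).
Slc2a1, chr4:119108495-119108744, plus strand: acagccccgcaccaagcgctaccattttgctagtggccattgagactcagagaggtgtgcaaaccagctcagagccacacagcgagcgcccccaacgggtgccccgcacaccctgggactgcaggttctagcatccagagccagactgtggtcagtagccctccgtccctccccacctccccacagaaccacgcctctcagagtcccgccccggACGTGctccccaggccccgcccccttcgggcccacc
Hk2, chr6:82774455-82774704, minus strand: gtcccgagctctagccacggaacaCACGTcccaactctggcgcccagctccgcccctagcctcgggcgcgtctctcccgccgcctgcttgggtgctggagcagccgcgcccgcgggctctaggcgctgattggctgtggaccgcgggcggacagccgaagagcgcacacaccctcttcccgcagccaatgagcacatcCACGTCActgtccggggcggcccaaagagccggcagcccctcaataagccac
Pfkp, chr13:6648772-6649021, minus strand: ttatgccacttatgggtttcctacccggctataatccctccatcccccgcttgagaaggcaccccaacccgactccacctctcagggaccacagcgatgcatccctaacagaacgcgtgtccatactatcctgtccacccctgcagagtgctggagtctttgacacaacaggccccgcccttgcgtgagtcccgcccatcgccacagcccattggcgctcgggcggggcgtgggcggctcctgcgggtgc
Hk1, chr10:62379909-62380158, minus strand: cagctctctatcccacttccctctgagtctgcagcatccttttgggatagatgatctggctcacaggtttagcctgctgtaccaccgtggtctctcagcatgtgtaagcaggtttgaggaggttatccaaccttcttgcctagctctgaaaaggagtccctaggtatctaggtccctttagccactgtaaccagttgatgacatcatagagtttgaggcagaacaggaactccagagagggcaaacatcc

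The Slc2a1 promoter held 1 ACGTG, and that of Hk2 held 2, one of which overlaps its single TGACG. Neither motif was found in the promoter of Pfkp or in that of Hk1 shown, and a second annotated Hk1 promoter held none. These motifs also occurred in promoters of members that did not rise in both genotypes. The Pfkfb3 promoters held 1 and 2 ACGTG, 2 and 1 TGACG, and 0 and 1 CACGTG. The Aldoa promoters held 0, 1 and 1 ACGTG and those of Pkm 0 and 1, with no TGACG in either. The Aldoa promoters with an ACGTG overlap each other and hold the same site. Neither motif was found for Gapdh or Pfkl. Of the 32817 promoters of the same length, 16.6% held ACGTG and 17.7% held TGACG. The full E-box CACGTG, bound by factors such as ChREBP, was in 6.02% of all promoters and in none of these 4, and the full palindrome TGACGTCA was in 1.55% and in none of these 4. The GC box GGGCGG, which is not in capitals, occurred 2 times for Slc2a1, 3 times for Hk2, 4 times for Pfkp and 0 times for Hk1, and 32.7% of all promoters held it. The GC content was 66.4% for Slc2a1, 69.6% for Hk2, 62.8% for Pfkp and 49.6% for the Hk1 promoter shown, and the second Hk1 promoter, at 62.8%, held 0 GC boxes. A match of these letters is a description of the sequence and not a binding site.

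Within glycolysis the 10 genes differed widely in level. Per kilobase of protein-coding transcript, the order of the mean normalized count in Ctrl mice at RT was Aldoa (21351 ± 1798, SD, n = 6), Pkm (3565 ± 503), Pfkl (2286 ± 238), Gapdh (2055 ± 169), Slc2a4 (1208 ± 53.0), Pfkfb3 (691 ± 189.7), Hk2 (337 ± 82.2), Pfkp (250.0 ± 30.4), Hk1 (29.1 ± 8.02) and Slc2a1 (14.9 ± 3.67). Of the neighbours in this order, Pfkl and Gapdh overlapped between mice, as did Pfkfb3 and Hk2, and Hk2 and Pfkp, and the others did not. The levels of Gapdh, Pkm, Aldoa and Pfkp are uncertain, because 63.9%, 38.9%, 28.6% and 16.1% of the 25-base stretches of their transcripts also occur in transcripts of other genes, for Gapdh in 367 pseudogenes among 392 genes. Only uniquely mapped reads had been counted, with paired reads of this length, so such stretches can lose reads. A pair can still map uniquely through its other read, and the loss was not measured.

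In Ctrl mice, 5 of the 10 genes were called changed by cold (limma, Benjamini-Hochberg adjusted p under 0.05 over the 14651 genes), all 5 of them higher at 4°C, where 46.0% of all genes were called and 22.3% were called higher. In BAT-Mcu-KO mice 4 of the 10 were called, all higher, against 43.3% of all genes called and 21.4% called higher. Called shares of the members were thus close to the background. All called members lay on the higher side, but the members were chosen with earlier results of these data known. Their direction is therefore a description and says nothing of the pathway as a whole. The 27 other measured genes of glucose transport and glycolysis had median log2 differences of -0.18 in Ctrl and -0.27 in BAT-Mcu-KO mice. The median log2 difference of the 10 was 0.35 in Ctrl and 0.31 in BAT-Mcu-KO mice, and that of all genes was -0.02 in each. Scaling each library to its 75th percentile moved the median of all genes in Ctrl mice to -0.14 and the share of higher among called genes from 48.5% to 37.1%, and the count of called members was then 4 in Ctrl mice, without Aldoa. The RT and 4°C mice did not overlap for 4 members in each genotype, where 25.2% of all genes in Ctrl and 24.2% in BAT-Mcu-KO mice did not.

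**Figure D2:**
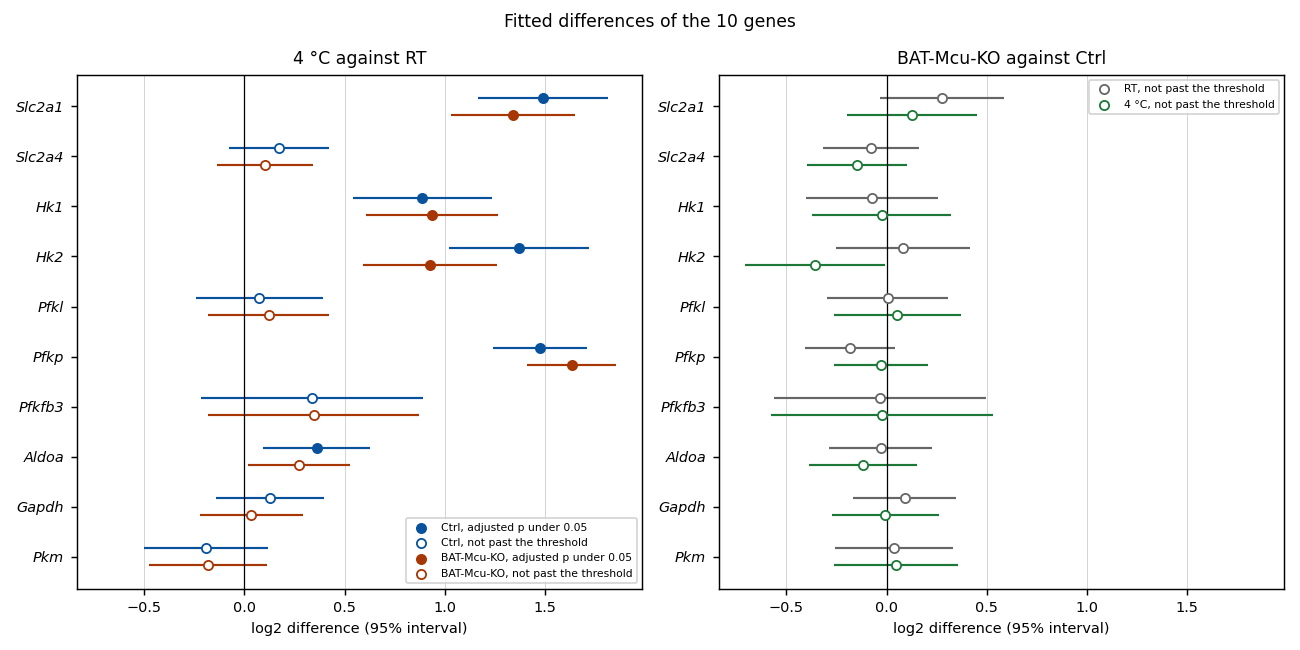
Log2 difference (x axis, log2 of normalized count + 1; lines, 95% interval) of the 10 genes by cold in each genotype (left) and by genotype at each temperature (right). Filled points passed an adjusted p of 0.05; Slc2a1, Hk1, Hk2 and Pfkp lie between 0.89 and 1.63 by cold, and no point on the right passed.

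Slc2a1 (chromosome 4 from 119108711 to 119137983 of GRCm38, plus strand) encodes the insulin-independent transporter GLUT1. Its normalized count was 32.0 at lowest, 53.5 at the median and 70.5 at highest in the 6 Ctrl mice at RT, and 162, 149, 117, 159 and 140.3 in the 5 Ctrl mice at 4°C. The BAT-Mcu-KO values were 51.3, 62.4 and 68.6 (lowest, median and highest) at RT and 132, 158 and 194 at 4°C. No mouse at RT reached the lowest of the mice at 4°C. The log2 difference was 1.49 ± 0.16 (SE) in Ctrl mice, or 2.81-fold (95% interval 2.25 to 3.52, adjusted p = 2.7e-08), and 1.34 ± 0.15 in BAT-Mcu-KO mice, or 2.54-fold (2.05 to 3.14, adjusted p = 7.6e-08). These values rest on 33 to 75 reads per Ctrl mouse at RT and 80 to 216 at 4°C. GLUT1 is also known from endothelial cells, those of the brain among them. The summed normalized count of 6 endothelial markers was 2962 to 4452 at RT and 5291 to 9891 at 4°C, 3 of the 6 (in Ctrl and in BAT-Mcu-KO mice alike) were called higher and none was at 0 in any group. Their part in the difference of Slc2a1 was not tested.

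Slc2a4 (chromosome 11 from 69942539 to 69948188, minus strand) encodes the insulin-responsive transporter GLUT4. Its normalized count was 3232, 3459 and 3596 (lowest, median and highest) in Ctrl mice at RT and 4001, 4651, 4059, 3348 and 3365 at 4°C. The BAT-Mcu-KO values were 2298, 3405 and 3816 at RT and 2549, 3523 and 4149 at 4°C. The groups overlapped in both genotypes. The log2 difference was 0.17 ± 0.12 in Ctrl (95% interval -0.08 to 0.42, adjusted p = 0.257, limma), against 0.10 ± 0.12 in BAT-Mcu-KO mice (-0.14 to 0.34, adjusted p = 0.505), so an increase above 1.34-fold in Ctrl mice lies outside the interval. As a description with no test, the share of Slc2a1 in the summed count per kilobase of both transporters was 1.23 ± 0.34% (SD) in Ctrl mice at RT and 2.98 ± 0.58% at 4°C, and 1.54 ± 0.37% and 3.57 ± 0.61% in BAT-Mcu-KO mice. Slc2a4 thus stayed the far more abundant transcript in every mouse, the highest share of Slc2a1 in any mouse being 4.28%.

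Hexokinase I (Hk1, chromosome 10 from 62268855 to 62379908, minus strand) is the form found in most tissues. Hexokinase II (Hk2, chromosome 6 from 82725025 to 82774454, minus strand) prevails in insulin-sensitive tissues. Hk2 was 1417, 1987 and 2527 (lowest, median and highest normalized count) in Ctrl mice at RT and 5819, 4808, 4788, 4596 and 5393 at 4°C, with BAT-Mcu-KO values of 1321, 2213 and 2441 at RT and 2599.5, 4158 and 4944 at 4°C. All mice at 4°C were above all mice at RT, with the gap smallest in BAT-Mcu-KO mice, where replicate 4 at 4°C was the lowest of its group. Hk2 rose by 1.37 ± 0.17 (log2, SE) in Ctrl mice, or 2.58-fold (95% interval 2.03 to 3.29, adjusted p = 3.6e-07), and by 0.93 ± 0.16 in BAT-Mcu-KO mice, or 1.90-fold (1.51 to 2.39, adjusted p = 4.5e-05).

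Hk1 was measured at 138, 163 and 261 (lowest, median and highest normalized count) in Ctrl mice at RT and at 314, 411, 402, 255 and 286 at 4°C, with BAT-Mcu-KO values of 146, 161 and 217 at RT and 263, 319.7 and 394 at 4°C. In Ctrl mice 4 of the 5 mice at 4°C were above all RT mice and the groups overlapped by 1 mouse, and in BAT-Mcu-KO mice there was no overlap. It rose by 0.89 ± 0.17 in Ctrl mice (1.85-fold, adjusted p = 0.00011) and by 0.94 ± 0.16 in BAT-Mcu-KO mice (1.91-fold, adjusted p = 3.6e-05). As a description, Hk1 made up 8.20 ± 2.42% (SD) of the summed Hk1 and Hk2 count per kilobase in Ctrl mice at RT and 5.95 ± 1.41% at 4°C, and 7.27 ± 1.36% and 7.35 ± 1.43% in BAT-Mcu-KO mice. The shares overlapped between temperatures in both genotypes.

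Of the phosphofructokinase genes, Pfkp (the platelet type, chromosome 13 from 6579768 to 6648777, minus strand) rose and Pfkl (the liver type, chromosome 10 from 77986947 to 78010083, minus strand) did not pass the test. Pfkp was 972, 1076 and 1303 (lowest, median and highest normalized count) in Ctrl mice at RT and 2864, 2989.6, 3459.9, 2989.8 and 3256 at 4°C, with BAT-Mcu-KO values of 791, 981 and 1256 at RT and 2617, 3139.6 and 3489.8 at 4°C. The lowest mouse at 4°C (2617) stood far above the highest at RT (1303). The log2 difference of 1.48 ± 0.11 in Ctrl mice (2.78-fold, 95% interval 2.36 to 3.28, adjusted p = 1.3e-10) and of 1.63 ± 0.11 in BAT-Mcu-KO mice (3.10-fold, 2.65 to 3.62, adjusted p = 1.2e-11) had the smallest adjusted p of the 10 genes. Pitrm1 on the opposite strand shares 748 exonic bases with Pfkp, 5.58% of its exonic length, and reads there could not be assigned by strand.

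Pfkl was 7603, 8593 and 9826 in Ctrl mice at RT (lowest, median and highest normalized count) and 8874, 11361, 10918.5, 7049 and 8157 at 4°C, with BAT-Mcu-KO values of 6015, 9339 and 10236 at RT and 5998, 10154 and 11371 at 4°C. The groups overlapped, and its log2 difference was 0.07 ± 0.15 in Ctrl (95% interval -0.24 to 0.39, adjusted p = 0.72, limma; below 0 when libraries were scaled to their 75th percentile or their total) and 0.12 ± 0.15 in BAT-Mcu-KO mice (-0.18 to 0.42, adjusted p = 0.537). The share of Pfkp in the summed Pfkp and Pfkl count per kilobase was 9.86 ± 0.63% (SD) in Ctrl mice at RT and 22.5 ± 3.33% at 4°C, and 8.81 ± 1.29% and 21.5 ± 2.91% in BAT-Mcu-KO mice. This description carries no test, and the RT and 4°C mice did not overlap, RT mice reaching 10.9% at most and 4°C mice starting at 18.3%.

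**Figure D3:**
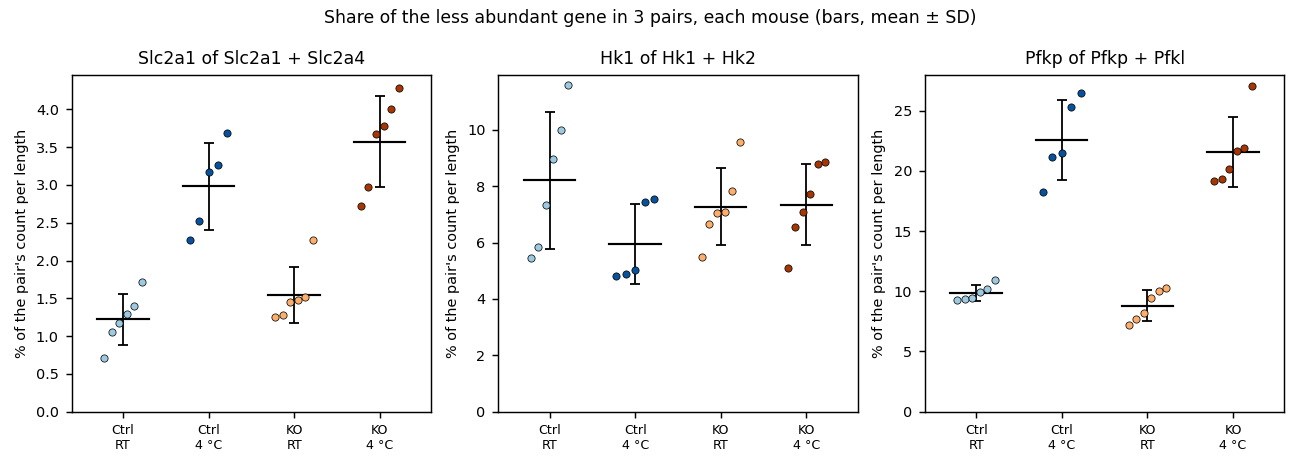
Share (y axis, % of the summed normalized count per kilobase of transcript) of Slc2a1 within Slc2a1 + Slc2a4, of Hk1 within Hk1 + Hk2 and of Pfkp within Pfkp + Pfkl, for each mouse by group (x axis; KO, BAT-Mcu-KO); bars, mean ± SD. The share of Pfkp lies between 7.20% and 10.9% at RT and between 18.3% and 27.0% at 4°C, whereas that of Hk1 overlaps between temperatures.

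Pfkfb3 (chromosome 2 from 11471433 to 11554077, minus strand) encodes an enzyme that makes fructose 2,6-bisphosphate. It varied widely between mice of the same group, with a coefficient of variation between 27.4% and 35.0% in the 4 groups. Its normalized count was 2082, 4058 and 4943 (lowest, median and highest) in Ctrl mice at RT and 2741, 4598, 6156, 4000.6 and 6951 at 4°C, with BAT-Mcu-KO values of 2418, 3771 and 5238 at RT and 2513, 4857.5 and 6774 at 4°C. The mice at the 2 temperatures were intermingled. The log2 difference was 0.34 ± 0.27 in Ctrl mice (95% interval -0.21 to 0.89, adjusted p = 0.318, limma), against 0.35 ± 0.26 in BAT-Mcu-KO mice (-0.18 to 0.87, adjusted p = 0.292), intervals that leave room for an increase of up to 1.85-fold. Without the 7 mice with high muscle markers, the BAT-Mcu-KO value was -0.09.

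Aldoa, Gapdh and Pkm act after the commitment to glycolysis. Aldolase A (Aldoa, chromosome 7 from 126795234 to 126800751, minus strand) was 44590 at lowest, 47984 at the median and 54098 at highest in Ctrl mice at RT and 58941, 71514, 67453, 55637 and 60306 at 4°C, with no overlap. The BAT-Mcu-KO values were 29250.2, 51081.5 and 57375 at RT and 51862, 57583 and 66578 at 4°C, and these groups overlapped. Aldoa rose in Ctrl mice by 0.36 ± 0.13 on the log2 scale (1.28-fold, adjusted p = 0.0257), and the value in BAT-Mcu-KO mice was 0.27 ± 0.12 (1.21-fold, adjusted p = 0.0786, limma). The difference between the genotypes in this response was -0.09 ± 0.18 (adjusted p = 0.958). The Ctrl call was lost without Ctrl RT replicate 1 (log2 difference 0.34, adjusted p = 0.0508) and without Ctrl 4°C replicate 2 (0.31, adjusted p = 0.0708) or replicate 3 (0.33, adjusted p = 0.059). It was also lost when libraries were scaled to the 75th percentile (0.24, adjusted p = 0.124) or the library total (0.28, adjusted p = 0.0834), and without the 7 mice with high muscle markers (0.37, adjusted p = 0.11). The BAT-Mcu-KO value passed without these 7 mice (0.42, adjusted p = 0.0452), with the muscle score as a covariate (0.30, adjusted p = 0.0388) and without BAT-Mcu-KO RT replicate 3 (0.33, adjusted p = 0.0452), and it was 0.13 without BAT-Mcu-KO RT replicate 5, the mouse with the lowest level.

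Gapdh (chromosome 6 from 125161715 to 125166467, minus strand), which encodes glyceraldehyde 3-phosphate dehydrogenase, had a normalized count of 3419 to 4294 in Ctrl mice at RT and 3458.5 to 4739 at 4°C, and of 2371 to 4763 and 3745 to 4481 in BAT-Mcu-KO mice. Its log2 difference by cold was 0.13 ± 0.13 in Ctrl (adjusted p = 0.44) and 0.03 ± 0.12 among BAT-Mcu-KO mice (adjusted p = 0.849, limma; below 0 under 3 other scalings and with edgeR). Pkm (chromosome 9 from 59656368 to 59679375, plus strand), pyruvate kinase of muscle and most other tissues, had a count of 11919 to 16569.6 in Ctrl mice at RT and 8844 to 14840.4 at 4°C, and of 9363 to 16079 and 8744 to 14115 in BAT-Mcu-KO mice. It was the only member with a negative estimate in each genotype, -0.19 ± 0.15 in Ctrl (adjusted p = 0.311) and -0.18 ± 0.14 in BAT-Mcu-KO mice (adjusted p = 0.325, limma), and did not pass the test. Counts per gene do not separate the M1 and M2 splice forms of Pkm.

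The steps of glycolysis that the 10 genes do not cover, were compared in the same way. Of Gpi1, Tpi1, Pgk1, Pgam1 and Eno1, 1 passed the test in each genotype. Pgk1, which encodes the phosphoglycerate kinase that makes the first ATP of the pathway, had a normalized count of 897 ± 62.9 (SD) in Ctrl mice at RT and 1146 ± 62.8 at 4°C, and of 885 ± 59.1 and 1246 ± 67.9 in BAT-Mcu-KO mice. It rose by 0.35 ± 0.07 (SE, log2) in Ctrl mice (1.28-fold, adjusted p = 0.000194) and by 0.49 ± 0.07 in BAT-Mcu-KO mice (1.41-fold, adjusted p = 1.5e-06), with no overlap between temperatures, and 68.4% of its 25-base stretches occur in transcripts of other genes. The log2 differences of the triose isomerase Tpi1 (0.21 and 0.18 in Ctrl and BAT-Mcu-KO mice), the mutase Pgam1 (0.18 and 0.18), the isomerase Gpi1 (-0.16 and -0.20) and the enolase Eno1 (-0.24 and -0.10) did not pass (limma adjusted p between 0.101 and 0.532). The share of 25-base stretches that occur in transcripts of other genes was 54.8% for Eno1, 42.3% for Pgam1, 42.1% for Gpi1 and 23.6% for Tpi1. Some of these genes passed under other settings (limma). Eno1 passed in Ctrl mice at -0.34 with quantile normalization, at -0.36 with scaling to the 75th percentile, at -0.31 without Ctrl 4°C replicate 2 (adjusted p = 0.0498) and at -0.24 without BAT-Mcu-KO RT replicate 5 (adjusted p = 0.0462). Tpi1 passed in Ctrl mice without Ctrl 4°C replicate 4 (0.27, adjusted p = 0.0476) and in BAT-Mcu-KO mice without the 7 mice with high muscle markers (0.32, adjusted p = 0.0375). Pgam1 passed in BAT-Mcu-KO mice without 4°C replicate 4 (0.25, adjusted p = 0.0334), and Gpi1 without RT replicate 5 (-0.35, adjusted p = 0.0321).

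The wider list held 31 other glucose transporter and glycolysis genes, of which 27 were measured. In Ctrl mice 4 of the 27 were called higher and 6 lower at 4°C, with a median log2 difference of -0.18, and in BAT-Mcu-KO mice 1 was called higher and 5 lower, with a median of -0.27. Over all genes 46.0% were called and 22.3% called higher in Ctrl mice, and 43.3% and 21.4% in BAT-Mcu-KO mice, so the called shares of this list were not above those of all genes. The counts of this list depended on the settings, with 1 to 5 called higher and 3 to 7 lower in Ctrl mice and 1 to 3 higher and 4 to 8 lower in BAT-Mcu-KO mice. Among single mice, leaving out Ctrl RT replicate 1 or 6 gave 2 higher in Ctrl mice, and leaving out Ctrl RT replicate 2, 3 or 4 or Ctrl 4°C replicate 4 gave 3 lower. In BAT-Mcu-KO mice, 2 were higher without 4°C replicate 3 and 3 without 4°C replicate 4, and 8 were lower without RT replicate 5. Besides Pgk1, only Pfkfb1, Slc2a8 and G6pc3 were called in both genotypes, all 3 lower at 4°C. Pfkfb1, which like Pfkfb3 encodes an enzyme that makes and breaks fructose 2,6-bisphosphate, had a count of 736 ± 44.9 (SD) in Ctrl mice at RT and 402 ± 27.4 at 4°C, and fell by 0.87 on the log2 scale in Ctrl and by 0.91 in BAT-Mcu-KO mice (adjusted p = 1.1e-07 and 2.9e-08, limma). Slc2a8, the intracellular transporter GLUT8, fell by 0.58 and by 0.64 (adjusted p = 3.7e-05 and 5.0e-06). G6pc3, a glucose 6-phosphatase found in most tissues, fell by 0.49 and by 0.47 (adjusted p = 0.000722 and 0.000684), and its Ctrl call was lost without the 7 mice with high muscle markers (-0.41, adjusted p = 0.0619). The muscle isozymes Pfkm, Pgam2 and Eno3 were compared between the 7 mice with high muscle markers and the other 16. Pfkm ranged from 594 to 1724 against 437 to 879.5, and Pgam2 from 166 to 982 against 3.73 to 175. Eno3 ranged from 479 to 2339 against 26.7 to 408. The ranges of Pfkm and Pgam2 overlapped and those of Eno3 did not.

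**Figure D4:**
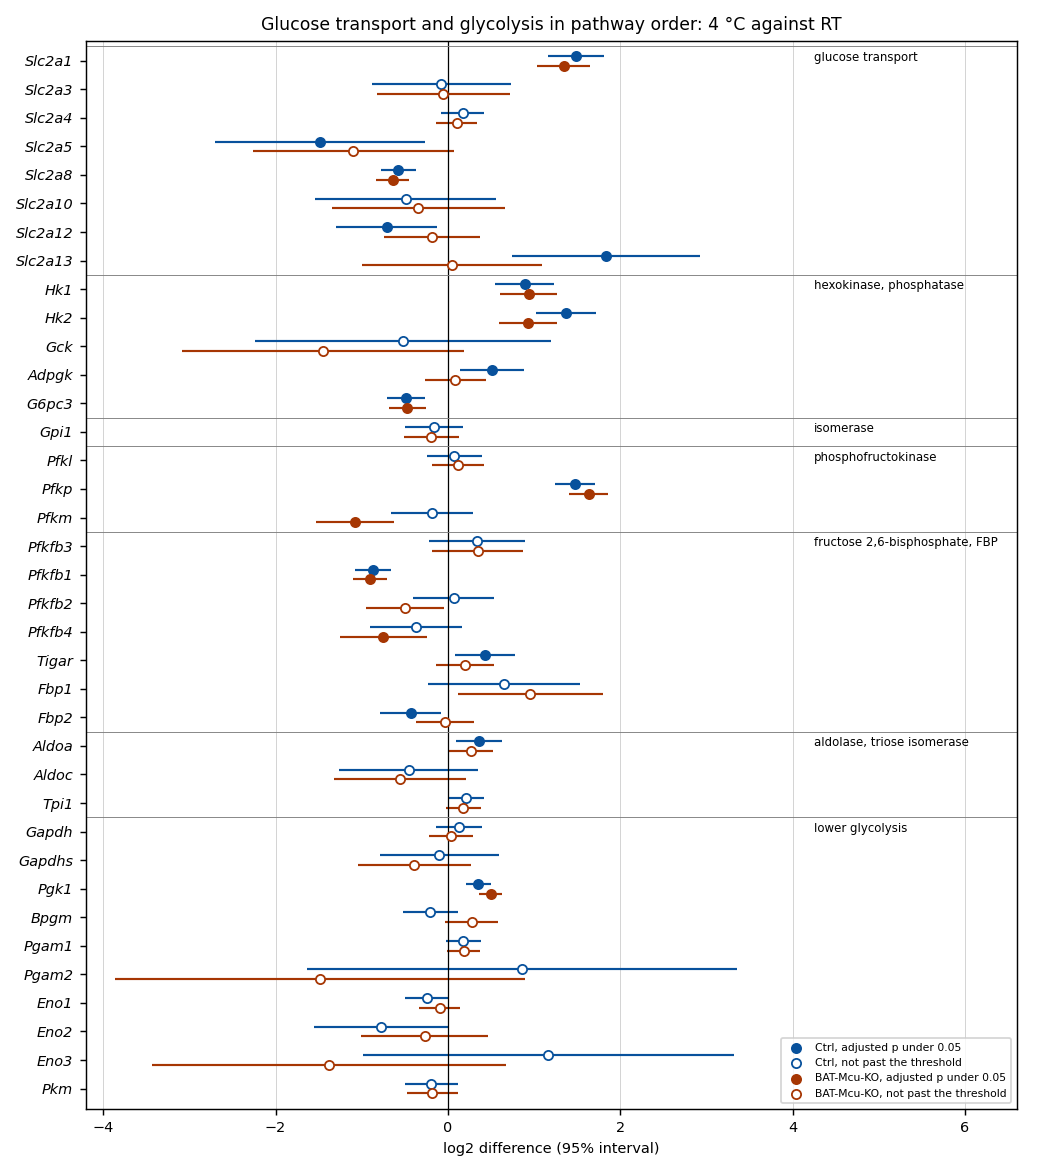
Log2 difference at 4°C against RT (x axis; lines, 95% interval) of the 37 measured glucose transport and glycolysis genes, the 10 members among them, in pathway order from the transporters to Pkm (y axis), in Ctrl and BAT-Mcu-KO mice. Filled points passed an adjusted p of 0.05; Slc2a1, Hk1, Hk2 and Pfkp stand to the right in both genotypes, Pfkfb1, Slc2a8 and G6pc3 to the left, and the muscle isozymes Pgam2 and Eno3 have the widest intervals.

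GLUT4 takes up glucose once insulin signalling has brought it to the cell surface, and genes of this signalling and traffic were examined as a list. Of 18 symbols listed, 16 were measured, and the others, Stxbp3a and Trarg1, are other names of the measured Stxbp3 and Tusc5. In Ctrl mice 6 were called higher and 5 lower, against 4 higher and 6 lower in the BAT-Mcu-KO group, with a median log2 difference of 0.19 and 0.03, where 46.0% and 43.3% of all genes were called. In both genotypes 9 were called in the same direction, 4 higher and 5 lower. The count called higher in Ctrl mice was 3 under each of the 3 other scalings.

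Irs2, an adaptor of the insulin receptor, had a normalized count of 253 ± 46.8 (SD) in Ctrl mice at RT and 1446 ± 226 at 4°C, and rose by 2.51 ± 0.20 (log2, SE) in Ctrl and 2.46 ± 0.19 in BAT-Mcu-KO mice (adjusted p = 2.7e-10 and 1.8e-10, limma). The receptor gene Insr rose by 0.58 ± 0.12 and 0.91 ± 0.11. In contrast, Pik3r1, the regulatory subunit of phosphoinositide 3-kinase, went from 1096 ± 262 to 205 ± 18.4 in Ctrl mice and fell by 2.38 in Ctrl and by 2.41 in BAT-Mcu-KO mice (adjusted p = 2.0e-12 and 7.5e-13). Akt2, the kinase that carries the insulin signal to GLUT4, fell by 1.33 and by 1.24. Tusc5 (also known as Trarg1), a protein of GLUT4 vesicles, had a count of 6830.2 ± 1046 in Ctrl mice at RT and 672 ± 223 at 4°C, and fell by 3.39 and by 2.90 (adjusted p = 5.1e-12 and 2.8e-11). Stx4a, the syntaxin with which GLUT4 vesicles fuse, fell by 0.57 and by 0.67.

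Among 12 regulators of glucose metabolism genes 11 were measured, and 6 were called higher and 1 lower in Ctrl mice, against 5 higher and 3 lower in the BAT-Mcu-KO group, with a median log2 difference of 0.36 and 0.17, where 46.0% of all genes were called and 22.3% called higher in Ctrl mice and 43.3% and 21.4% in BAT-Mcu-KO mice. The count lower in Ctrl mice was 3 with scaling to the 75th percentile, 2 with quantile normalization or scaling to the library total, and 2 when Ctrl RT replicate 5, Ctrl 4°C replicate 1, 2 or 5 or BAT-Mcu-KO 4°C replicate 1 was left out. Ppargc1a, the coactivator PGC-1α of mitochondrial and thermogenic genes, had a count of 573 ± 187 (SD) in Ctrl mice at RT and 19302 ± 4383 at 4°C, and rose by 5.10 ± 0.23 (log2, SE) in Ctrl and 4.33 ± 0.22 in BAT-Mcu-KO mice (adjusted p = 2.0e-14 and 1.1e-13, limma). By genotype, BAT-Mcu-KO against Ctrl, Ppargc1a was at -0.08 ± 0.22 at RT and -0.85 ± 0.23 at 4°C. Neither was called (adjusted p = 0.999 and 0.284, limma). At 4°C the genotypes did not overlap, as for 0.683% of all genes. Its interaction was -0.77 ± 0.31 (adjusted p = 0.793, limma). Hif1a, the oxygen-regulated factor that binds the hypoxia response element, rose by 0.78 ± 0.14 in Ctrl and 0.52 ± 0.13 in BAT-Mcu-KO mice. Epas1, of the same list, was at -0.23 ± 0.12 in Ctrl mice (adjusted p = 0.113, limma). It was called lower in BAT-Mcu-KO mice, at -0.39 ± 0.11 (adjusted p = 0.00634, limma). Its count was 4430 ± 697 (SD) in Ctrl mice at RT, where Hif1a had 610 ± 144. Prkaa1, a catalytic subunit of AMP-activated kinase, rose by 0.55 ± 0.11 in Ctrl and 0.53 ± 0.11 in BAT-Mcu-KO mice. Prkaa2, the other catalytic subunit, rose in Ctrl mice (0.69 ± 0.14, adjusted p = 0.000174, limma). In BAT-Mcu-KO mice Prkaa2 was not called (0.08 ± 0.13, adjusted p = 0.663, limma), nor was its interaction (-0.62 ± 0.19, adjusted p = 0.741). Mlxipl, which encodes the glucose-sensing factor ChREBP, fell by 0.57 and by 0.53, while its partner Mlx rose by 0.36 ± 0.10 and 0.35 ± 0.09. Txnip, of the same list, had a count of 6242 ± 998 (SD) in Ctrl mice at RT. It was not called, at 0.03 ± 0.16 in Ctrl and -0.01 ± 0.15 in BAT-Mcu-KO mice (adjusted p = 0.893 and 0.966, limma). Arrdc4, a target of ChREBP and its relative MondoA, had a count of 23.7 ± 7.63 (SD) in Ctrl mice at RT. It was called higher at 1.32 ± 0.47 in Ctrl and 1.18 ± 0.45 in BAT-Mcu-KO mice (adjusted p = 0.0239 and 0.0364, limma). These calls were lost in 4 of 35 and 13 of 35 alternative settings. Without the 7 mice with high muscle markers the values were 0.66 and 0.54. In this fit without the 7 mice, Hif1a in BAT-Mcu-KO mice (0.46, adjusted p = 0.0579) and Mlx in Ctrl mice (0.32, adjusted p = 0.115) also missed the threshold.

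**Figure D5:**
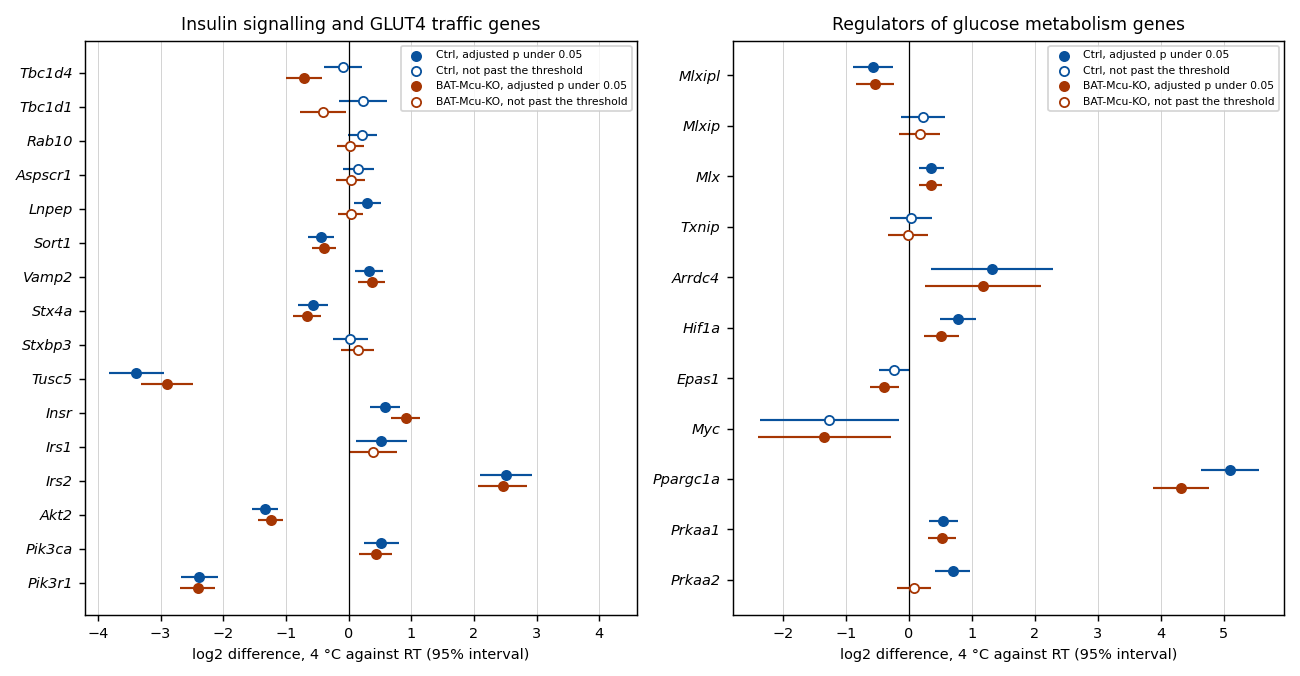
Log2 difference at 4°C against RT (x axis; lines, 95% interval) of the 16 measured insulin signalling and GLUT4 traffic genes (left) and of the 11 measured regulators (right), in Ctrl and BAT-Mcu-KO mice; the axes of the panels differ. Filled points passed an adjusted p of 0.05; Irs2 and Ppargc1a stand far to the right, and Tusc5, Pik3r1 and Akt2 to the left, in both genotypes.

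Whether loss of Mcu changed these genes was compared at each temperature. None of the 10 was called by genotype at RT, where 0.0478% of all genes were called (limma), and none had an unadjusted p under 0.05; their log2 differences ran from -0.18 to 0.27. At 4°C 0 of the 10 were called, against 0.0751% of all genes, and the log2 differences ran from -0.36 to 0.13. DESeq2 and edgeR on the recovered reads also called 0 of the 10 at either temperature. The genotypes overlapped for all 10 genes at both temperatures, where 0.218% of all genes at RT and 0.683% at 4°C did not.

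Hk2 at 4°C was the only member with an unadjusted p under 0.05 by genotype. It was lower in BAT-Mcu-KO mice by 0.36 on the log2 scale (-0.36 ± 0.17, SE, 0.78-fold, 95% interval 0.61 to 0.99, unadjusted p = 0.0448, adjusted p = 0.701, limma), and 5 of the 6 BAT-Mcu-KO mice were below all 5 Ctrl mice. Without BAT-Mcu-KO 4°C replicate 4, the lowest mouse, it was -0.24. The difference therefore did not hold up against the number of genes tested.

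The interaction asks whether the cold response itself differed between genotypes. It was called for 0 of the 10 genes, as for 0.0% of all genes, with limma and edgeR, and for 0 of the 10 with DESeq2, which called 28 genes in all. By unadjusted p, 0 of the 10 and 878 of all genes were under 0.05. The values of the members ran from -0.44 for Hk2 (95% interval -0.93 to 0.04) to 0.16 for Pfkp (-0.17 to 0.48). For Slc2a1 the interval ran from -0.60 to 0.30, so a cold response in BAT-Mcu-KO mice of less than 0.66 times that in Ctrl mice lies outside it.

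The genes whose pattern over the 23 mice was closest to a member were found by the root mean square (RMS) difference of mean-centred log2 values, among 7707 genes whose normalized count averaged at least 100. For Slc2a1 these were Pmp22 and Pak1ip1 (RMS 0.24 for each, where the median gene was at 0.77). The closest to Hk2 were Adam17 and Mbd1 (0.27 for each, median 0.67), and the closest to Pfkfb3 were Pvrl2 (0.31) and Trim67 (0.33, median 0.56). Slc2a4 was closest to Pgam1 (0.11) and Ctsd (0.12, median 0.36). All 3 changed little by cold, Slc2a4 by 0.17 in Ctrl and 0.10 in BAT-Mcu-KO mice, Pgam1 by 0.18 and 0.18, and Ctsd by 0.10 and 0.16. The RMS difference counts the size of changes, so genes that change little lie close to each other, and shared regulation was not tested.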

How the data were processed

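RNA of BAT was sequenced per mouse. Per the labels and the study's methods, libraries followed Smart-seq2, in which full-length cDNA is PCR-amplified, and paired reads were aligned to mm10 (GENCODE M7) with STAR 2.4.0j. Uniquely mapped reads in exons were counted with HTSeq irrespective of strand. The signal the authors deposited is the count divided by the DESeq2 size factor of the library, for genes that reached 8 reads in 6 or more samples. All values (100%) were whole reads to within 0.01, giving 7129271 to 21006347 reads per mouse; read numbers cover counting error only. A deposited table of the authors' fold changes and p-values was not used.

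Group, replicate number and column were taken from the labels, and 0 columns were left out. Limma 3.58.1 (R 4.3.3) was fitted to log2(normalized count + 1) over all 23 mice, with 4 group means and a variance trend. P-values were Benjamini-Hochberg adjusted over 14651 genes and called under 0.05. The pseudocount understates changes of low genes. DESeq2 1.42.0 and edgeR 4.0.16 on the recovered reads were alternatives, besides other pseudocounts, filters, scalings, a replicate block and each mouse left out. The tests were tried on simulated data. Of the symbols, 19 had become dates and are not named. Positions and lengths are from GENCODE M21 on GRCm38, promoters from RefSeq.

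All 10 members were named. By genotype a member was named with its value if its unadjusted p was under 0.05. Of each list, up to 6 genes called in both genotypes with the largest change in Ctrl mice were named, besides Gpi1, Tpi1, Pgk1, Pgam1 and Eno1, the 2 genes of closest pattern to 4 members, and Mcu. Pfkm, Pgam2, Eno3, Epas1, Txnip and Prkaa2 were named, and Ppargc1a was given by genotype, after their values were seen. The members and lists were chosen with earlier results of these data known, and the muscle covariate after seeing the data. Labels do not say whether mice shared litters or processing days.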

Additional observations from a re-analysis of the deposited data

Results flagged for a closer look

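Of the 60 combinations of a gene (the 10 members, Gpi1, Tpi1, Pgk1, Pgam1 and Eno1) and a group, 8 had a mouse whose gap to the nearest other mouse was large against the range of its group (Dixon's test at 95%), where chance gives about 1 in 20, or 3. BAT-Mcu-KO RT replicate 5 was the lowest of its group for Aldoa (29250.2, next lowest 48315), Gapdh (2371, next 4049), Pkm (9363, next 13746), Gpi1 (4189, next 7189) and Pgam1 (434.1, next 534.2). BAT-Mcu-KO 4°C replicate 4 was the lowest for Pfkl (5998, next 9385) and Pkm (8744, next 12417). BAT-Mcu-KO RT replicate 4 was the lowest for Hk2 (1321, next 2086). The summed muscle marker count of these mice was 52.0, 4838 and 55657. Without BAT-Mcu-KO RT replicate 5 the cold difference of Gpi1 in BAT-Mcu-KO mice passed the test, at -0.35 (limma, adjusted p = 0.0321).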

How the results depend on the processing

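The cold calls of Slc2a1, Hk1, Hk2 and Pfkp kept their direction and their side of the threshold in both genotypes under all 36 alternatives. The count of called members was 4 to 5 in each genotype, with Aldoa coming or going, and 0 by genotype and for the interaction under every setting run. Sign changes were found only for values that passed no test, and their cause was not tested. Pfkl by cold in Ctrl mice was -0.0460 scaled to the 75th percentile, -0.00157 scaled to the library total and -0.00478 to 0.167 with 1 mouse left out. Slc2a4 in BAT-Mcu-KO mice was -0.0310 with quantile normalization, and Pfkfb3 -0.0910 without the 7 mice with high muscle markers. Gapdh in BAT-Mcu-KO mice was -0.114 with quantile normalization, -0.0170 at the 75th percentile, -0.0235 at the library total, -0.00282 with edgeR and -0.119 to 0.0820 with 1 mouse left out, the lowest without BAT-Mcu-KO RT replicate 5.

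Over all genes, 7 were called by genotype at RT, against 3 with only the compared groups, 20 with DESeq2 and 3 without the 7 mice. At 4°C 11 were called, against 7 without the trend, 2 with only the compared groups, 7 with the replicate block, 23 with DESeq2, 6 with edgeR and 4 without the 7 mice, and 3 to 16 with 1 mouse left out. The interaction was called for 0 genes, for 28 with DESeq2 and for 0 to 1 with 1 mouse left out. Without the 7 mice, of which 3 were Ctrl at 4°C, Mcu at 4°C missed the threshold, at -1.50 (limma, adjusted p = 0.0647). With all mice it was -1.61.

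Mice with the same replicate number are different animals. The deviations of same-numbered mice correlated above 0.1 in 4 of 33 pairs, and 3 of 23 mice were closest to a mouse of their own number, so the numbers were not taken to pair the mice. With the number as a block the members called were 5 and 4 by cold, as without it. Limits are depth for Slc2a1, which rests on as few as 33 reads, 5 or 6 mice per group, and the food and housing of mice at RT, which are not given. Shared sequence is a further limit for Gapdh, Pkm, Aldoa, Pfkp, Pgk1, Eno1, Pgam1, Gpi1 and Tpi1.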
